A study of Danio rerio with 6 samples.

Results

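Cadherins and protocadherins were examined in zebrafish (Danio rerio) embryos, as every gene whose symbol in the deposited table begins with cdh and a digit or with pcdh. The rule found 90 of 31624 genes, 22 with a cdh symbol and 68 with a pcdh symbol. Messenger RNA had been sequenced in 3 libraries from embryos labelled Trdmt1 knockout and in 3 from a control group labelled wildtype. Trdmt1, also known as Dnmt2, methylates transfer RNAs. The embryo's age, the kind of allele, the strain and the number of embryos in a library are not given in the sources used here. Whether a group's libraries are separate clutches is not stated, and the p-values therefore describe the spread among these libraries, which may be technical.

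Cadherins are calcium-dependent adhesion proteins whose extracellular repeats bind the same or a related cadherin on the neighbouring cell. Classical cadherins, of type I and type II, also bind catenins inside the cell, which link the junction to actin, and the set of classical cadherins on a cell governs which cells it adheres to. Protocadherins have more extracellular repeats and lack the catenin-binding tail. Non-clustered delta protocadherins are best known in the developing nervous system, and clustered protocadherins, transcribed from tandem arrays of variable exons, give neurons different surface identities in mammals.

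The 90 genes fell into 4 type I and 10 type II classical cadherins, 8 other cadherins, 14 delta protocadherins, 4 other non-clustered protocadherins and 50 clustered protocadherins. Of these, 83 carried the annotation terms for homophilic cell adhesion and for calcium ion binding in the deposited table, where 146 genes in all carry the former. In RefSeq's gene order (assembly GRCz12tu), 79 members were matched by Ensembl identifier or symbol, and 36 of 40 matched clustered protocadherins lay directly beside another member, against 11 of the 39 other matched members. Exonic lengths had a median of 4132 bases, against 1761 bases over all genes. Clustered genes share near-identical stretches, and reads from them can be split between copies or dropped, so single clustered values are uncertain.

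Libraries held 12877132 to 18721589 counted reads. The targeted transcript, trdmt1, was measured in RPKM, that is reads scaled to a gene's exonic length and to the library's total. Controls 1, 2 and 3 had 3.10, 2.60 and 1.08 RPKM, and knockouts 1, 2 and 3 had 1.59, 1.40 and 1.07 RPKM. Control 3 fell among the knockouts, so this transcript does not check the labels. Knockouts 1 and 2 were nearly alike, with a chi-square over its degrees of freedom of 1.58 in all genes and 1.45 in the members, against 11.7 to 75.6 and 5.35 to 49.7 in the other 14 library pairs. They were kept as 2 samples, as labelled. Knockout 3 stood apart from both, also in 10 photoreceptor marker genes. Their median relative to the control mean was 3.43 on the log2 scale in knockout 3, and -1.43 and -1.21 in knockouts 1 and 2. Results are therefore given with and without knockout 3.

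In control embryos the most abundant members were the classical cadherins cdh2, cdh11 and cdh1. The highest was cdh2 (ENSDARG00000018693), N-cadherin of neural tube, somite and heart, at 35.28, 43.34 and 41.38 RPKM in controls 1, 2 and 3. Next came cdh11 (ENSDARG00000021442), a type II cadherin of mesenchyme and neural tissue, at 29.97, 36.12 and 35.41 RPKM. The ranges of these neighbours in the order overlapped between libraries, but within each of the 6 libraries cdh2 was above cdh11, with a ratio of cdh11 to cdh2 of 0.655 to 0.892. It was followed by cdh1 (ENSDARG00000102750), E-cadherin of epithelia, at 22.14, 21.00 and 25.50 RPKM, and by the delta-2 protocadherin pcdh18b at 21.25, 19.66 and 19.25 RPKM. The type II cadherin cdh6, known from kidney and neural crest, stood at 18.72, 19.60 and 21.17 RPKM. The control ranges of cdh1, pcdh18b and cdh6 overlapped between libraries. Within each of the 6 libraries cdh1 was above both of the others, whereas pcdh18b and cdh6 changed order between libraries. In all, 10 members had a control mean of at least 10 RPKM and 46 of at least 1 RPKM.

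**Figure D1:**
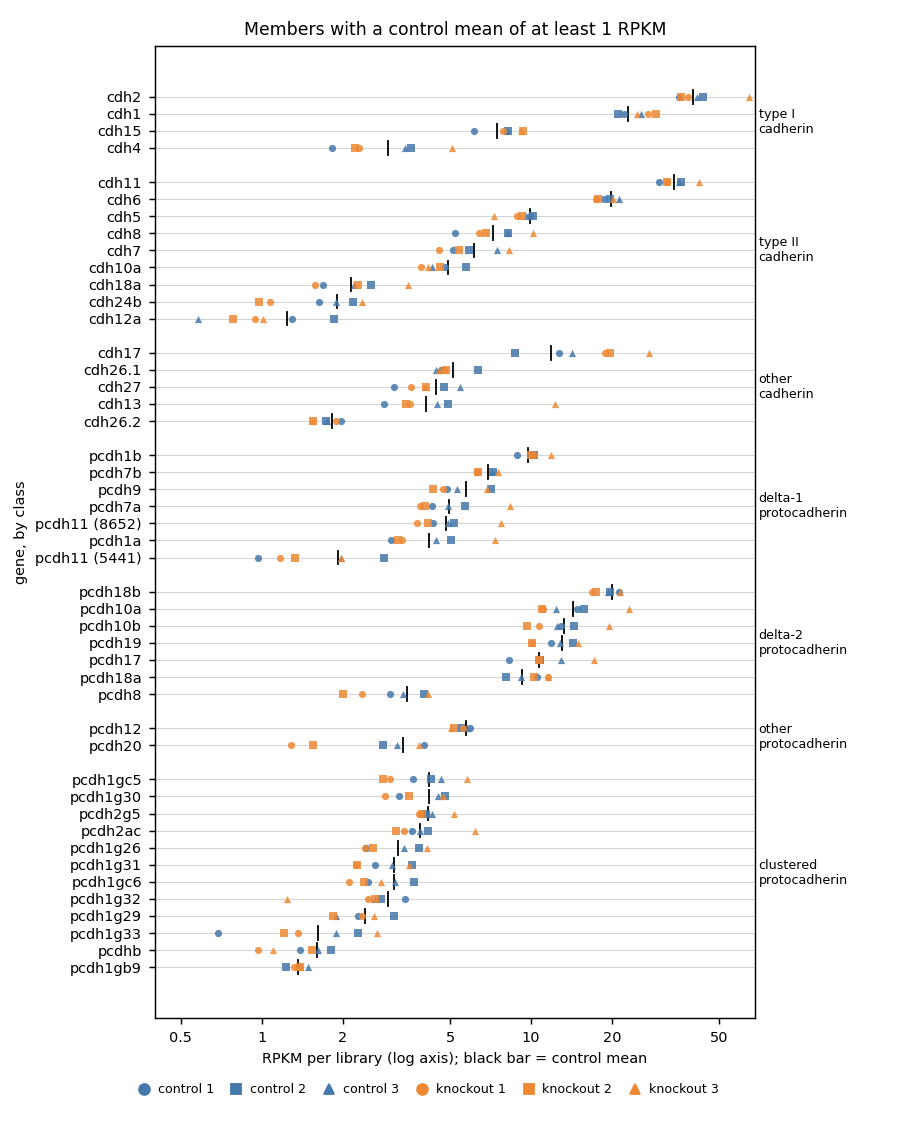
RPKM (log axis) of the 46 members with a control mean of at least 1 RPKM, ordered by class and control mean. Points are single libraries and black bars are control means. The highest control mean is that of cdh2, and no clustered protocadherin has a control mean above 4.18 RPKM.

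Among the remaining type I cadherins, cdh15, M-cadherin of skeletal muscle, had a control mean of 7.49 ± 1.18 RPKM (SD, n = 3), and cdh4, R-cadherin of retina and brain, one of 2.93 ± 0.966 RPKM (SD, n = 3). Type II members spanned control means from 33.8 RPKM for cdh11 down to 0.520 RPKM for cdh24a. The neural type II gene cdh8 had 5.21, 8.21 and 8.22 RPKM in controls and 6.38, 6.78 and 10.17 RPKM in knockouts. The endothelial VE-cadherin gene cdh5 varied least between controls in this group, at 9.90, 10.19 and 9.60 RPKM. Of the cadherins outside the classical types, cdh17 led with a control mean of 11.9 ± 2.84 RPKM (SD, n = 3), before cdh26.1 at 5.14 ± 1.06, cdh27 at 4.43 ± 1.21 and cdh13 at 4.08 ± 1.10 RPKM (SD, n = 3 each). Near the floor was cdh16, a kidney cadherin in mammals, which held 2 to 12 reads in a library and was not tested.

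Delta protocadherins summed to a control mean of 122.2 RPKM, below the 160.9 RPKM of classical cadherins. Their median control mean per gene was the higher of the 2, at 8.07 against 6.68 RPKM. The delta-2 genes pcdh18b, pcdh10a, pcdh10b, pcdh19 and pcdh17 had control means of 20.05, 14.3, 13.3, 12.98 and 10.7 RPKM, and pcdh18a and pcdh8 had 9.25 and 3.45 RPKM. Delta-1 genes were lower per length, led by pcdh1b at 9.74 ± 0.748 RPKM and pcdh7b at 6.89 ± 0.492 RPKM (SD, n = 3 each). The median control mean was 12.98 RPKM over the 7 delta-2 genes, 4.96 RPKM over the 7 delta-1 genes and 6.68 RPKM over the 14 classical cadherins. Clustered protocadherins had a median of 0.425 RPKM, and 12 of 50 reached 1 RPKM.

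Summed over members, classical cadherins held 41.7% to 45.4% of the members' RPKM in a library, non-clustered protocadherins 32.5% to 37.2% and clustered protocadherins 11.9% to 13.8%. These shares moved little between libraries, although the members summed to 487 RPKM in knockout 3, above the 339 to 390 RPKM of the others. The other cadherins, cdh17 among them, moved more, from 6.99% to 8.04% in controls to 9.72% to 10.3% in knockouts. Other non-clustered protocadherins held 2.51% to 3.24% in controls and 2.26% to 2.43% in knockouts. Differences in shares were not tested.

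Ratios between genes whose symbols name copies, or between rows sharing a symbol, were steady over the libraries in some pairs and not in others. The ratio of pcdh10a to pcdh10b lay between 0.998 and 1.18 in the 6 libraries. For pcdh18b over pcdh18a the ratio was 2.028, 2.430 and 2.097 in controls 1, 2 and 3 and 1.454, 1.689 and 1.856 in knockouts 1, 2 and 3. All knockout ratios of that pair lay below all control ratios, and the difference was not tested. Every other ratio computed overlapped between the groups, including those of the pcdh7, pcdh15, cdh24 and cdh26 pairs and of the 2 pcdh11 rows. Full separation of 3 from 3 libraries can give no two-sided exact permutation p below 0.1. Several ratios were computed, so 1 full separation among them can arise without any difference between the groups. Among single genes, all knockouts lay below all controls in 9.00% of all tested genes. The ratio of pcdh1b to pcdh1a was 2.03 to 2.95 in controls, 3.09 and 3.11 in knockouts 1 and 2, and 1.61 in knockout 3, so it went apart within the knockout group.

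The main comparison asked which members differed between knockout and control embryos. No cadherin or protocadherin changed at the threshold: of the 74 members with enough reads to be tested, 0 had a p below 0.05 after Benjamini-Hochberg adjustment (edgeR, quasi-likelihood, fitted over 20555 genes), where 0.117% of all tested genes passed. At an unadjusted p under 0.05 there was 1 member, cdh17, that is 1 of 74, against 7.47% of all tested genes. DESeq2 called the same member and no other, against 1.14% of genes. The largest differences were under 2-fold, with log2 fold changes of knockout over control between -0.81 and 0.92. The 16 untested members, 14 of them clustered protocadherins, had too few reads, from 1 read over all 6 libraries for pcdh2ab3 to 55 reads for pcdh2g1.

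The member with the smallest p was cdh17 (ENSDARG00000005112), an atypical cadherin with a short cytoplasmic tail, known in zebrafish from the pronephros and in mammals from the intestine. Its level was 12.71, 8.73 and 14.23 RPKM in controls 1, 2 and 3, whereas knockouts 1, 2 and 3 had 18.79, 19.67 and 27.46 RPKM. Every knockout library lay above every control, and knockout 3 was the highest. The log2 fold change was 0.92 ± 0.23 (SE), or 1.89-fold, with an unadjusted p of 0.00294 and an adjusted p of 0.289 in edgeR's quasi-likelihood test. Over the 20 ways to assign 3 libraries, the two-sided exact permutation p was 0.1, the smallest this design allows. DESeq2 gave a log2 fold change of 0.93 with an adjusted p of 0.0245, and over the 13 alternatives the adjusted p ranged from 0.0245 to 0.905. Without knockout 3 the log2 fold change was 0.73 ± 0.20 (SE, edgeR adjusted p = 0.164). With knockouts 1 and 2 summed to 1 library it was 1.01 ± 0.26 (SE, edgeR adjusted p = 0.387). The other p-values for cdh17 count knockouts 1 and 2 as separate samples and are too small if those are not independent.

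Other genes of the pronephros were compared beside cdh17. Of 5 further pronephros markers, 0 passed over all genes, 3 had an unadjusted p under 0.05 by edgeR and 4 had positive log2 fold changes. Among all tested genes 7.47% had such a p, 6.30% had all knockouts above all controls and 9.00% had all knockouts below. The sodium phosphate transporter gene slc20a1a had 3.90, 4.09 and 3.93 RPKM in controls 1, 2 and 3, against 5.05, 6.52 and 9.37 RPKM in the knockouts. The sodium chloride cotransporter gene slc12a3 stood at 0.83, 1.09 and 1.14 RPKM against 1.44, 1.69 and 5.34 RPKM. In both genes all knockouts were above all controls. The ion channel gene trpm7, the other marker with an unadjusted p under 0.05, went the opposite way, at 17.05, 17.82 and 12.87 RPKM in controls and 12.79, 11.53 and 11.95 RPKM in knockouts, all knockouts below all controls (log2 fold change -0.36, edgeR adjusted p = 0.667). The nephric transcription factor gene pax2a overlapped between groups, at 9.56 to 11.06 RPKM in controls and 9.86 to 11.06 RPKM in knockouts. The 5 markers summed to 30.2 to 33.4 RPKM in controls and 30.5 to 40.8 RPKM in knockouts, with none at 0. Of the 5 intestinal markers, which summed to 151 to 194 RPKM in controls and 90.5 to 132 RPKM in knockouts with none at 0, 3 had positive and 2 negative log2 fold changes. The fatty acid binding protein gene fabp2 had the smallest p, at 137.85, 108.63 and 118.08 RPKM in controls and 89.14, 92.53 and 55.39 RPKM in knockouts, all knockouts below all controls (log2 fold change -0.58, edgeR adjusted p = 0.580). The brush-border gene vil1 stood at 18.35 RPKM in knockout 3 and at 1.65 to 2.58 RPKM elsewhere. Their part in the cdh17 values was not tested. In such whole-embryo samples, more cells of a type and more RNA per cell cannot be told apart.

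**Figure D2:**
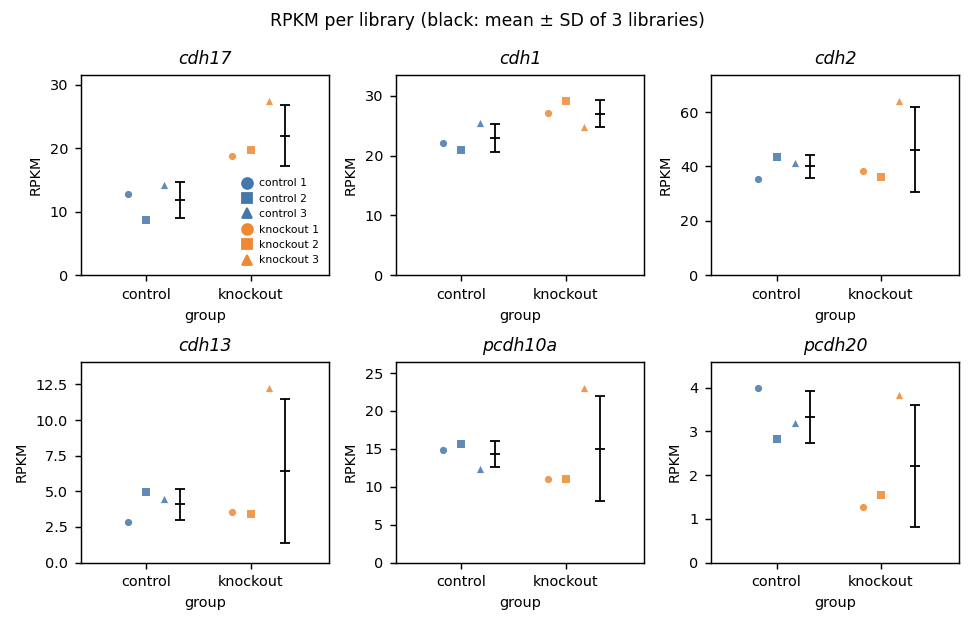
RPKM of 6 members by group, with each library as a point and the mean ± SD of 3 libraries in black; axes start at 0. Control and knockout points are separate for cdh17 and overlap in the other 5. Among those 5, knockout 3 lies well away from knockouts 1 and 2 in all but cdh1.

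Neither the epithelial nor the mesenchymal cadherins passed the test. E-cadherin, cdh1, stood at 27.17, 29.19 and 24.73 RPKM in knockouts 1, 2 and 3, beside the control values above. Knockouts 1 and 2 were above all controls and knockout 3 lay within their range. The log2 fold change was 0.28 ± 0.15 (SE, edgeR adjusted p = 0.753). All 8 epithelial markers were detected, with sums of 4050 to 4786 RPKM in controls and 5326 to 5909 RPKM in knockouts, mostly from keratin genes. Of these markers 0 passed over all genes and 3 had an unadjusted p under 0.05 by edgeR, with the smallest p in the keratin genes krt4 (log2 fold change 0.40, edgeR adjusted p = 0.612) and krt91 (0.49, edgeR adjusted p = 0.650). Every knockout lay above every control in 4 of the 8 markers, krt4, krt5, krt91 and cldne, and below in 0. Over all tested genes these orders were found in 6.30% and 9.00%. An unadjusted edgeR p below 0.05 was found in 7.47% of them. The part of the epithelial markers in the cdh1 values was not tested.

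N-cadherin, cdh2, stood at 38.36, 35.98 and 64.17 RPKM in knockouts 1, 2 and 3. Knockouts 1 and 2 lay within the control range and knockout 3 above it (log2 fold change 0.24 ± 0.23 SE, edgeR adjusted p = 0.835). The ratio of cdh1 to cdh2 was 0.628, 0.485 and 0.616 in controls 1, 2 and 3, 0.708 and 0.811 in knockouts 1 and 2, and 0.385 in knockout 3. Knockout libraries thus held both the highest and the lowest ratio. For cdh11 the knockout values were 31.90, 32.09 and 42.04 RPKM (log2 fold change 0.10 ± 0.17 SE, edgeR adjusted p = 0.912), with knockout 3 again the highest.

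The muscle gene cdh15 had 6.13, 8.20 and 8.14 RPKM in controls 1, 2 and 3, against 7.89, 9.33 and 9.20 RPKM in knockouts (log2 fold change 0.27 ± 0.18 SE, edgeR adjusted p = 0.771). Its groups overlapped because knockout 1 lay below controls 2 and 3. Of 5 muscle markers, 0 passed over all genes by edgeR, 1 had an unadjusted p under 0.05 and 4 had positive log2 fold changes. The myogenic regulator gene myod1 had 8.30, 4.97 and 6.35 RPKM in controls and 8.33, 9.05 and 11.59 RPKM in knockouts (log2 fold change 0.60, edgeR adjusted p = 0.617). The troponin gene tnnt3b had 650.80 to 682.49 RPKM in controls and 684.60 to 776.56 RPKM in knockouts. In both, all knockouts were above all controls, while myog, mylpfa and actc1b overlapped. Among all tested genes 6.30% had all knockouts above all controls and 7.47% an unadjusted p under 0.05 by edgeR. The part of the muscle markers in the cdh15 values was not tested.

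Endothelial cdh5 was the only tested member whose knockout libraries all lay below all controls, at 8.87, 9.21 and 7.25 RPKM in knockouts 1, 2 and 3, where 9.00% of all tested genes had such an order. The log2 fold change was small, -0.19 ± 0.15 (SE, edgeR adjusted p = 0.802). The other vascular member, pcdh12, known in mammals as an endothelial protocadherin, had 5.93, 5.49 and 5.79 RPKM in controls 1, 2 and 3, against 5.59, 5.16 and 5.06 RPKM in knockouts. It varied least of the members at 1 RPKM or more, with a highest value 1.17 times the lowest. All 8 endothelial markers were detected, summing to 78.3 to 85.6 RPKM in controls and 68.4 to 85.3 RPKM in knockouts. None passed over all genes by edgeR and 0 had an unadjusted p under 0.05, with the smallest p in the receptor genes tie1, at 8.09 to 9.21 and 6.74 to 7.54 RPKM, and tek, at 2.35 to 6.64 and 3.53 to 7.14 RPKM. Besides cdh17, pcdh1g14 was the only tested member with all knockouts above all controls, 2 of 74 in all, against 6.30% of tested genes. That clustered gene stood at 1.00, 0.91 and 0.65 RPKM in controls and at 1.02, 1.12 and 1.29 RPKM in knockouts, from 20 to 47 reads a library (log2 fold change 0.45 ± 0.30 SE, edgeR adjusted p = 0.777).

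Of the remaining type II genes, cdh12a had 0.58 to 1.85 RPKM in controls and 0.78 to 1.01 RPKM in knockouts (log2 fold change -0.41 ± 0.39 SE, edgeR adjusted p = 0.837), and cdh24b had 1.63, 2.18 and 1.89 RPKM against 1.07, 0.98 and 2.36 RPKM. For cdh10a the ranges were 4.28 to 5.72 and 3.91 to 4.58 RPKM, and for cdh18a they were 1.69 to 2.54 and 1.57 to 3.50 RPKM. Controls and knockouts overlapped in all 4.

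Tip-link genes, whose products join the stereocilia of hair cells, were near the floor. The longer of 2 rows with the symbol cdh23 (ENSDARG00000007561) had 0.39, 0.52 and 0.16 RPKM in controls 1, 2 and 3, against 0.24, 0.20 and 0.15 RPKM in the knockouts. It had the lowest log2 fold change of all tested members, -0.81 ± 0.42 (SE, edgeR adjusted p = 0.737), and control 3 lay within the knockout range. The shorter row (ENSDARG00000094454) held 0 to 9 reads a library and was not tested. Its partner pcdh15a stood at 0.39 to 0.63 RPKM in controls and at 0.46, 0.46 and 0.93 RPKM in knockouts. The copy pcdh15b had 0.67 to 0.84 RPKM in controls, while knockouts 1 and 2 had 0.49 and 0.65 RPKM and knockout 3 had 2.04 RPKM. Hair cell markers had negative log2 fold changes in 8 of 9 genes. Of the 9, 0 passed over all genes and 3 had an unadjusted p under 0.05 by edgeR. They summed to 177 to 237 RPKM in controls and 73.1 to 153 RPKM in knockouts, mostly from pvalb9 and s100t. The gene pvalb9 alone had 132.47 to 155.03 RPKM in controls and 43.64 to 119.11 RPKM in knockouts. The smallest p belonged to the calcium-binding protein gene s100t, at 39.84, 68.36 and 33.54 RPKM in controls and 23.20, 24.14 and 17.15 RPKM in knockouts (log2 fold change -1.09, edgeR adjusted p = 0.254). Next was the transduction channel gene tmc2b, at 0.69 to 0.79 RPKM in controls and 0.34 to 0.56 RPKM in knockouts. Among all tested genes 7.47% had an unadjusted p under 0.05 by edgeR. None of the hair cell markers was at 0, and their part in the cdh23 values was not tested.

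Several delta-2 protocadherins divided the knockout libraries. In pcdh10a, a delta-2 gene of axon growth, controls 1, 2 and 3 stood at 14.81, 15.68 and 12.40 RPKM and knockouts 1, 2 and 3 at 11.08, 11.01 and 23.02 RPKM. Knockouts 1 and 2 were below every control and knockout 3 above every control, so the log2 fold change of 0.11 ± 0.28 (SE, edgeR adjusted p = 0.953) describes neither. Its copy pcdh10b stood at 12.93, 14.41 and 12.43 RPKM in controls and at 10.73, 9.62 and 19.54 RPKM in knockouts, with the same order of libraries. In pcdh19, linked in humans to epilepsy, the values were 11.83, 14.30 and 12.81 RPKM in controls and 10.07, 10.05 and 14.97 RPKM in knockouts. The gene pcdh8, whose mammalian product acts at synapses, stood at 2.98, 4.01 and 3.35 RPKM in controls and at 2.35, 2.01 and 4.13 RPKM in knockouts. The most abundant delta-2 gene, pcdh18b, had 16.85, 17.35 and 21.40 RPKM in knockouts 1, 2 and 3, beside the control values above. In these 5 genes knockouts 1 and 2 lay below all controls and knockout 3 above them. The same order held in 13 of the 74 tested members, against 6.07% of all tested genes. Besides the 5 delta-2 genes these were the delta-1 genes pcdh7a and pcdh11 (ENSDARG00000098652), cdh24b, pcdh15b and the clustered genes pcdh1g2, pcdh1gc5, pcdh2ac and pcdh2g5.

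The delta-2 genes pcdh17 and pcdh18a did not share that order. Levels of pcdh17 were 8.27, 10.77 and 12.96 RPKM in controls and 10.65, 10.73 and 17.12 RPKM in knockouts, so knockouts 1 and 2 were inside the control range. Those of pcdh18a were 10.48, 8.09 and 9.18 RPKM in controls and 11.59, 10.27 and 11.53 RPKM in knockouts, with a log2 fold change of 0.30 ± 0.15 (SE, edgeR adjusted p = 0.730). Among delta-1 genes, pcdh1a stood at 3.01, 5.06 and 4.43 RPKM in controls and at 3.32, 3.20 and 7.34 RPKM in knockouts. The lower of 2 pcdh11 rows (ENSDARG00000105441) had 0.97, 2.84 and 1.96 RPKM in controls and 1.17, 1.33 and 1.96 RPKM in knockouts (log2 fold change -0.33 ± 0.37 SE, edgeR adjusted p = 0.860). The copy of pcdh1a, pcdh1b, was steadier, at 8.88, 10.26 and 10.07 RPKM against 10.26, 9.95 and 11.84 RPKM.

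Knockout 3 was the highest of the 6 libraries in 40 of the 74 tested members, against 28.6% of all tested genes. It was so in 11 of 14 delta protocadherins, 8 of 14 classical cadherins and 17 of 36 clustered protocadherins. The largest excess among members at 1 RPKM or more in the controls was in cdh13, T-cadherin, which is held in the membrane by a lipid anchor. This gene had 2.84, 4.93 and 4.46 RPKM in controls 1, 2 and 3, while knockouts 1 and 2 had 3.55 and 3.44 RPKM and knockout 3 had 12.25 RPKM (log2 fold change 0.69 ± 0.50 SE, edgeR adjusted p = 0.793). Its highest value was 4.31 times its lowest, the widest range of the 46 members with a control mean of at least 1 RPKM.

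**Figure D3:**
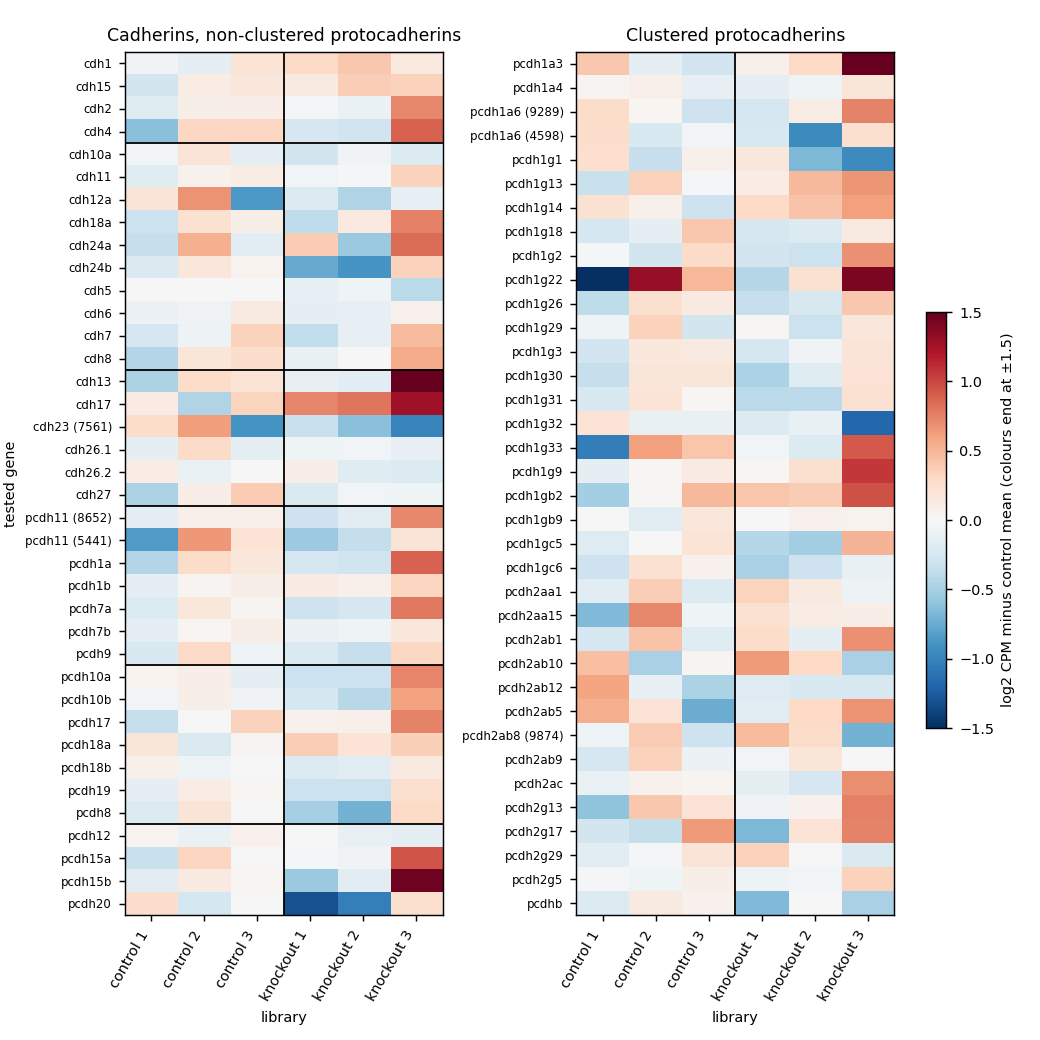
Colours give log2 CPM of each of the 74 tested members in each library minus the mean of the controls; horizontal lines separate the classes and a vertical line the groups. Numbers after a symbol are the last digits of the identifier where 2 rows share it. The column of knockout 3 is mostly red among type I cadherins and delta protocadherins, and cdh17 is red in all 3 knockouts.

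The medians of the classes per library show the same split. On the log2 scale relative to the control mean, the 14 classical cadherins had medians of -0.13, -0.08 and 0.35 in knockouts 1, 2 and 3 and of -0.20, 0.14 and 0.11 in controls 1, 2 and 3. Delta protocadherins, 14 genes, had -0.26, -0.28 and 0.34 in knockouts and -0.15, 0.10 and 0.04 in controls. Clustered protocadherins, 36 tested genes, had -0.10, -0.02 and 0.24 in knockouts and -0.16, 0.08 and 0.05 in controls. The median over all tested genes lay between -0.01 and 0.01 in every library. The 6 tested cadherins outside the classical types differed from this, with -0.09, -0.10 and -0.09 in knockouts and -0.02, 0.19 and 0.10 in controls. That median hides a split, since in knockout 3 cdh13 stood at 1.65 and cdh17 at 1.27, and the rest between -0.99 and -0.06. The whole class summed to 50.2 RPKM in knockout 3, against 25.8 to 34.2 RPKM elsewhere. Thus knockout 3 was above all controls in the medians of classical cadherins, delta and clustered protocadherins and not in that of the other cadherins, and for delta protocadherins knockouts 1 and 2 were below all controls.

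Neuron markers were above the control range in the same library: the medians of 9 genes were -0.10, -0.01 and 0.61 in knockouts 1, 2 and 3, and their sum was 403 to 515 RPKM in controls, while knockouts 1 and 2 had 404 and 412 RPKM and knockout 3 had 602 RPKM. None was at 0. None passed over all genes by edgeR and 0 had an unadjusted p under 0.05, with the smallest p in the neurofilament gene nefma, which had 6.60 to 12.63 RPKM in controls. Its knockout values were 9.53, 8.60 and 23.87 RPKM. The next, elavl3, of young neurons, went the other way, at 70.64 RPKM in knockout 3 and 88.57 to 114.6 RPKM elsewhere. A highest median in knockout 3 was not particular to neuron markers. It was also found for epithelial, muscle, intestinal and pronephros markers, at 0.36, 0.25, 1.39 and 1.26, and for the photoreceptor markers above. The intestinal list was split, and its sum was lowest in knockout 3, at 90.5 RPKM against 126 to 194 RPKM elsewhere. In that library fabp2 and apoa4a were at their lowest, and vil1, cdx1b and slc15a1b at their highest. Of the 5 muscle markers 3 were highest in knockout 3, but mylpfa was lowest, at 3807 RPKM against 4596 to 5206 RPKM elsewhere. Hair cell and endothelial markers had medians of -0.22 and -0.23 in that library, not the highest. The part of any of these markers in the protocadherin values was not tested.

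**Figure D4:**
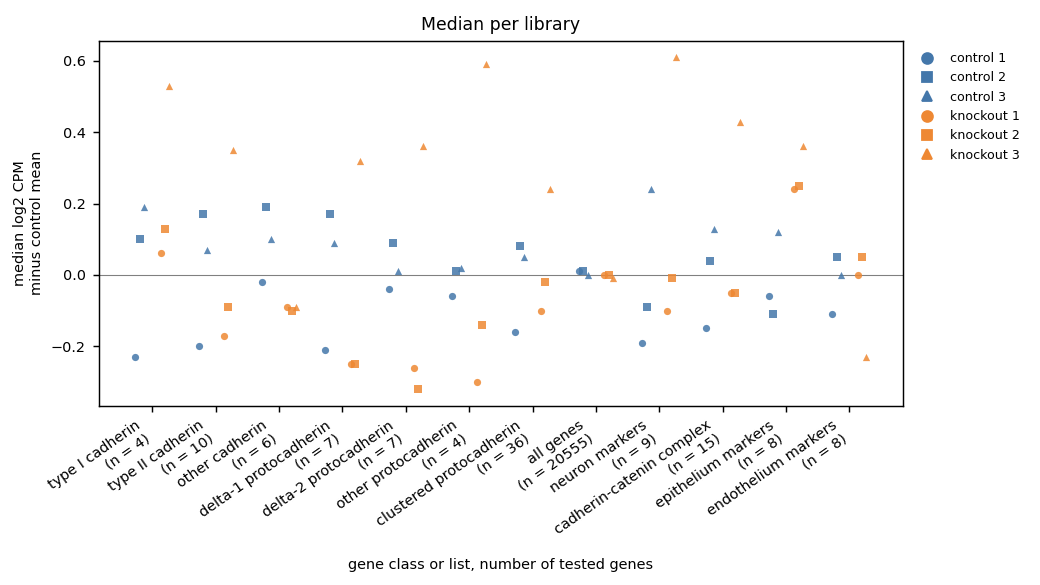
Median over the tested genes of each class or list of log2 CPM minus the control mean, 1 point per library. Knockout 3 is the highest library in 6 of the 7 cadherin classes, at 0.24 to 0.59, but stands at -0.09 in the other cadherins. It is also the highest in neuron markers, in the catenin list and in epithelial markers, and the lowest for endothelial markers. Medians of all genes lie at 0 within 0.01.

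Without knockout 3, 55 of 74 members had a negative log2 fold change, against 52.7% of all genes tested. The knockout side of this fit rests on 2 nearly agreeing libraries, so its p-values are too small if those are not independent. Type I cadherins were negative in 2 of 4 genes with a median of 0.09, type II cadherins in 10 of 10 with a median of -0.12, other cadherins in 5 of 6 with a median of -0.11, non-clustered protocadherins in 15 of 18 with a median of -0.29, and clustered protocadherins in 23 of 36 with a median of -0.14. The median over all genes was -0.02. At an unadjusted p under 0.05 there were 8 negative and 2 positive members, against 5.99% of all genes in each direction. The 2 positive ones were cdh17 and cdh1. The negative ones were the type II gene cdh24b, 4 delta-2 genes (pcdh8, pcdh10a, pcdh10b and pcdh19), pcdh20, and the clustered genes pcdh1gc5 and pcdh1g31.

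One of them passed over all genes. Without knockout 3, pcdh20, a non-clustered protocadherin of the nervous system, was lower with a log2 fold change of -1.19 ± 0.23 (SE, edgeR adjusted p = 0.0453), where 0.196% of all genes were called lower. Its level was 3.99, 2.82 and 3.18 RPKM in controls 1, 2 and 3, whereas knockouts 1, 2 and 3 had 1.28, 1.55 and 3.82 RPKM. Knockouts 1 and 2 were below all controls while knockout 3 lay within their range. With all 6 libraries the log2 fold change was -0.55 ± 0.39 (SE, edgeR adjusted p = 0.790), and the adjusted p ranged from 0.0453 to 0.976 over the 13 alternatives.

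**Figure D5:**
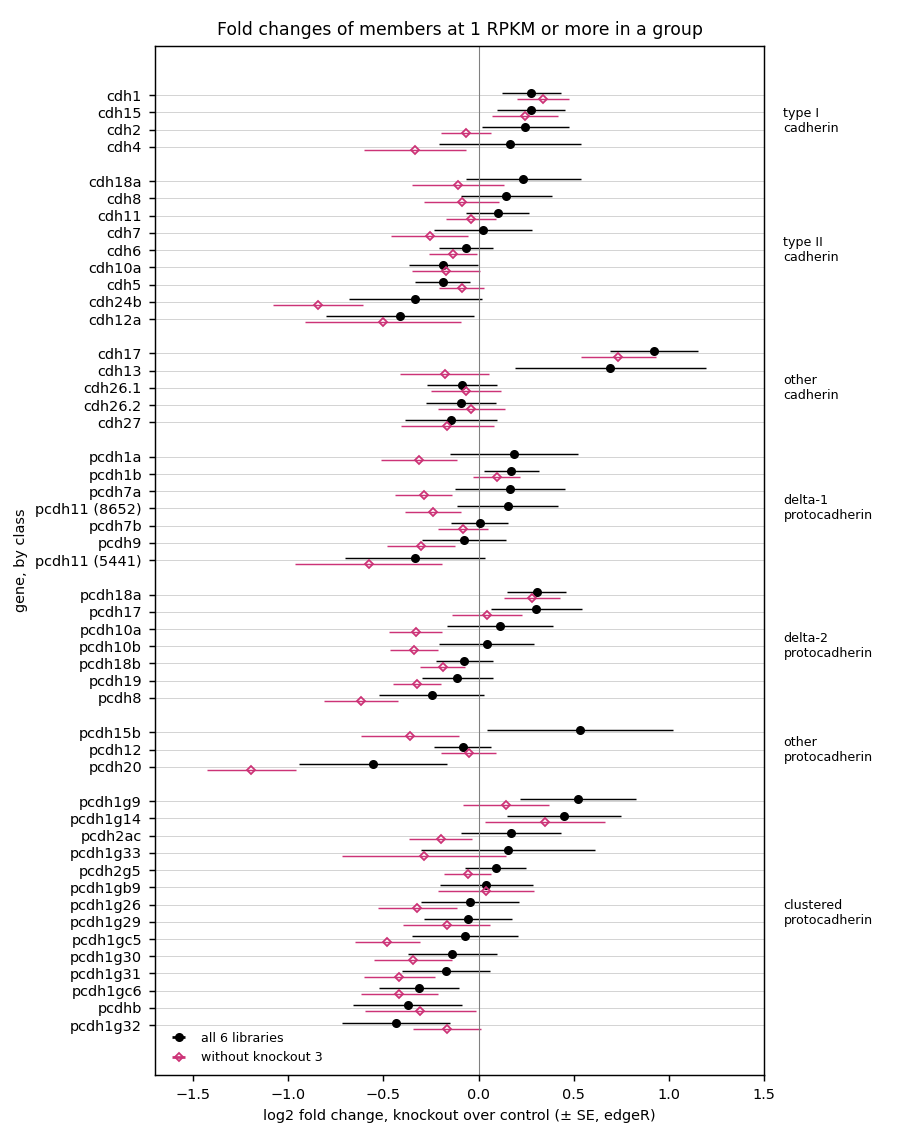
Log2 fold change of knockout over control (± SE, edgeR) of tested members with a mean of at least 1 RPKM in either group, with all 6 libraries (black) and without knockout 3 (open diamonds). The diamond lies left of the black point for most protocadherins. The lowest diamond is that of pcdh20 at -1.19, the longest shift that of pcdh15b, from 0.53 to -0.36, and cdh17 is at 0.92 and 0.73.

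All clustered protocadherins except pcdhb carry symbols of 2 tandem clusters. That gene was placed in the class by its symbol and lay beside no other member in RefSeq's gene order. In cluster 1 the g genes held 26.9 to 35.9 RPKM in sum in controls and 25.5 to 37.4 RPKM in knockouts, from 19 genes, and the a genes 0.81 to 1.20 RPKM in controls from 4 genes. In cluster 2 the 14 a genes summed to 6.83 to 8.54 RPKM in controls and the 12 g genes to 6.21 to 6.97 RPKM. Most of the latter came from pcdh2g5, whose listed exonic length of 11645 bases was the longest of the class, at 4.08, 4.07 and 4.29 RPKM in controls and 3.82, 3.92 and 5.15 RPKM in knockouts. The cluster 1 gene pcdh1gc5 stood at 3.65, 4.25 and 4.63 RPKM in controls and at 3.00, 2.82 and 5.80 RPKM in knockouts, and pcdh2ac at 3.61, 4.14 and 3.85 RPKM against 3.38, 3.16 and 6.17 RPKM. In both, knockouts 1 and 2 were below and knockout 3 above all controls, as in pcdh10a.

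A few clustered genes went the other way in knockout 3. The gene pcdh1g32 had 3.40, 2.78 and 2.63 RPKM in controls, while knockouts 1 and 2 had 2.47 and 2.63 RPKM and knockout 3 had 1.24 RPKM. By contrast pcdh1g22 ranged from 0.12 to 1.29 RPKM among the controls alone, from 10 to 107 reads, and from 0.35 to 1.32 RPKM among the knockouts. Of the other clustered genes at 1 RPKM or more in a group, pcdh1g9 had the highest log2 fold change, at 0.86, 0.99 and 1.00 RPKM in controls and 0.94, 1.10 and 1.96 RPKM in knockouts (0.52 ± 0.30 SE, edgeR adjusted p = 0.756). The genes pcdhb and pcdh1gc6 were at -0.37 and -0.31 on that scale, with control ranges of 1.39 to 1.80 and 2.47 to 3.68 RPKM and highest knockout values of 1.54 and 2.76 RPKM. The level of pcdh1g30 was 3.23, 4.77 and 4.51 RPKM in controls against 2.86, 3.51 and 4.69 RPKM in knockouts. Groups overlapped in each of these 4 genes. At the bottom, pcdh2ab3 and pcdh2ab11 held 0 reads in all 3 controls. From counting error alone this allows up to about 3 expected reads over the 3 controls together. The 2 genes held 1 and 6 reads, respectively, in the knockouts together.

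The partners of classical cadherins inside the cell were taken as a list of 19 cadherin and catenin complex genes. Of these, 15 were matched, and each was read from the fit over all genes, with no test of the list. None passed over all genes by edgeR, 0 had an unadjusted p under 0.05, and 11 were positive, with a median log2 fold change of 0.14. The beta-catenin gene ctnnb1 was the most abundant, at 132, 128 and 128 RPKM in controls and 125, 123 and 162 RPKM in knockouts. The smallest p belonged to the alpha-catenin genes. Here ctnna1 stood at 27.69, 28.18 and 37.29 RPKM in controls and at 34.02, 33.63 and 51.72 RPKM in knockouts (log2 fold change 0.39, edgeR adjusted p = 0.750), and the neural ctnna2 at 3.80, 5.69 and 5.69 RPKM against 5.14, 5.42 and 11.12 RPKM. Knockout 3 was the highest library in both. The list's medians were -0.05, -0.05 and 0.43 in knockouts 1, 2 and 3.

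A further 17 tested cadherin-superfamily genes lay outside the symbol rule, namely Fat, Dachsous, Celsr, calsyntenin and desmosomal genes and cdhr1a. They had 0 calls by edgeR, 3 with an unadjusted p under 0.05, and a median log2 fold change of 0.01. The desmosomal cadherin gene dsg2.1, a desmoglein, had the smallest p. It stood at 8.50, 9.79 and 13.13 RPKM in controls and at 18.28, 19.05 and 18.96 RPKM in knockouts, with no overlap (log2 fold change 0.88, edgeR adjusted p = 0.188). The giant cadherin gene fat1b stood at 1.15, 1.59 and 1.03 RPKM against 0.74, 0.71 and 0.84 RPKM, also without overlap (log2 fold change -0.68, edgeR adjusted p = 0.392). Among all tested genes 7.47% had an unadjusted p under 0.05 by edgeR, 6.30% had all knockouts above all controls and 9.00% had all knockouts below.

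Of 16 genes for factors that repress cadherin transcription, such as those of the Snail, Zeb and Twist families, and for proteases that cleave cadherins, 0 passed over all genes by edgeR and 0 had an unadjusted p under 0.05. Their median log2 fold change was 0.10, with 10 positive. The smallest p belonged to the presenilin gene psen2, at 9.99 to 10.25 RPKM in controls and 10.88 to 12.74 RPKM in knockouts (edgeR adjusted p = 0.741). The next was snai1b, a repressor of E-cadherin, at 6.06, 3.56 and 4.61 RPKM in controls and 5.87, 5.97 and 6.56 RPKM in knockouts, which overlapped.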

How the data were processed

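The authors deposited read counts per Ensembl gene and library, taken as raw since they are whole numbers, and RPKM values, per the file headers, which equal count over exonic length and library total within 0.005. Per the submitters' processing notes the tools were Trimmomatic 0.30, HISAT2 2.0.1, HTSeq 0.6.1 and DESeq, with build Zv9; order, settings and strand are not given in the sources used here. Reads of a gene and of an overlapping or antisense partner cannot be told apart. Values in 6 other library columns, which match no sample here, were left unused.

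For the 20555 genes passing edgeR's filterByExpr, TMM factors were computed and the groups were compared in edgeR 4.0.16 (R 4.3.3) by its quasi-likelihood test in robust mode, with Benjamini-Hochberg adjustment over all of them. Standard errors were derived from the F statistic. Levels are the deposited RPKM; values relative to controls are log2 CPM with a prior count of 2. The procedure was tested on simulated data. Alternatives were no filter, a mean of at least 2 RPKM, DESeq2 size factors, DESeq2 1.42.0, a replicate block, each library left out, knockouts 1 and 2 summed, and the exonic length trend removed.

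Members, lists and rules were chosen with earlier results of these data known. The text gives, per class, the 4 members with the highest control level, and per direction up to 12 with the largest fold change at 1 RPKM or more, those with an unadjusted p under 0.05 and textbook members, and in most other lists the 2 genes with the smallest p; others it names were chosen after their values were seen. Counting precision follows from 12877132 to 18721589 reads a library. No sequence table was used.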

Additional observations from a re-analysis of the deposited data

How the results depend on the processing

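Over all genes 24 calls were made. There were 53 with no filter on low counts, 234 with DESeq2, and 0 to 206 when 1 library was left out. Among members there were 0 calls, 1 with DESeq2 (cdh17) and 0 to 1 with 1 library left out (pcdh20 without knockout 3). Class medians of the log2 fold change were 0.12 for classical cadherins, 0.08 for non-clustered and 0.07 for clustered protocadherins. With 1 library left out these ranged from -0.10 to 0.23, from -0.29 to 0.22 and from -0.14 to 0.10, lowest each time without knockout 3. With all 6 libraries and the filter at a mean of 2 RPKM the medians were 0.16, 0.06 and -0.06. The last came from 9 clustered genes, 7 of them with a negative log2 fold change.

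Of the 47 tested members named in the text, 22 kept their direction in every alternative that gave a value; members under a mean of 2 RPKM gave none with that filter. The other 25 changed sign in at least 1 alternative, none of them called. With 1 library left out, log2 fold changes ranged from -0.04 to 0.17 for cdh11, -0.18 to 0.99 for cdh13, -0.11 to 0.47 for cdh18a, -0.09 to 0.66 for cdh24a, -0.06 to 0.39 for cdh2, -0.16 to 0.08 for cdh26.1, -0.35 to 0.06 for cdh27, -0.33 to 0.37 for cdh4, -0.13 to 0.01 for cdh6 and -0.09 to 0.28 for cdh8. They ranged from -0.33 to 0.29 for pcdh10a, -0.34 to 0.23 for pcdh10b, -0.65 to 0.05 for the lower and -0.24 to 0.34 for the higher pcdh11 row, -0.07 to 0.55 for pcdh15a, -0.36 to 0.88 for pcdh15b, -0.31 to 0.39 for pcdh1a, -0.32 to 0.28 for pcdh1g2, -0.57 to 0.95 for pcdh1g22, -0.34 to 0.01 for pcdh1g30, -0.48 to 0.11 for pcdh1gc5, -0.20 to 0.34 for pcdh2ac, -0.06 to 0.17 for pcdh2g5, -0.29 to 0.36 for pcdh7a and -0.08 to 0.06 for pcdh7b. With knockouts 1 and 2 summed, pcdh1gc5 was at 0.09. The cause was not tested.

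With the replicate number as a block, 18 genes and 0 members were called by edgeR (1 member at an unadjusted p under 0.05), and pcdh10b was at -0.03. Deviations of same-numbered libraries had correlations of -0.000145, -0.0587 and -0.0348. With a pair of knockouts nearly alike and the remaining knockout apart, these values cannot decide whether same-numbered libraries were related. Members with few reads, most of them clustered protocadherins, set the limit of depth.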
